A study of Mus musculus with 4 samples.

Results

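The primary granule genes Mpo, Elane, Prtn3, Ctsg, Ms4a3, Srgn, Cst7 and Lyz2 were described in MLL-AF9 leukemic stem cells (LSCs) with and without CD37. These 8 genes were chosen by name as genes of azurophil granules and of the promyelocyte stage, and all 8 were found among the 17104 genes of the deposited table. The cells were YFP+, c-kit+ bone marrow cells sorted at week 6 of the secondary transplantation from male C57 recipients with acute myeloid leukemia. The leukemia was made from lineage-negative bone marrow cells of CD37 fl/fl mice that also carried Rosa26-CreERT2, a Cre recombinase expressed from a ubiquitous locus and switched on by tamoxifen. These cells were transduced with the retrovirus MSCV-MLL-AF9-IRES-YFP, which links the fusion oncogene to the yellow fluorescent protein used for the sort. In the CD37 -/- group (2 libraries), the first recipients received tamoxifen, which removes the floxed exons of Cd37. In the control group, named CD37 fl/fl (2 libraries, titled WT by the submitters), they received corn oil, so the controls carried the floxed alleles and the Cre as well and were not exposed to tamoxifen. Loss of CD37 and tamoxifen exposure cannot be told apart. The hosts were sublethally irradiated and were given supporting marrow cells, so that the YFP gate is what separates the leukemia from host cells. The labels do not say whether each library came from a mouse of its own, and the p-values therefore measure only the spread between these libraries, which may be technical.

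Primary granules, also called azurophil granules, are the first granules that a developing neutrophil makes, and their contents are transcribed at the promyelocyte stage and shut down as the cell matures. They hold myeloperoxidase, which makes hypochlorous acid from hydrogen peroxide, and the serine proteases neutrophil elastase, proteinase 3 and cathepsin G, which are packed on the proteoglycan serglycin. The transcription factors C/EBP alpha, PU.1, RUNX1 and MYB are known to drive these genes, and MLL-AF9 leukemias are usually arrested at the granulocyte-monocyte progenitor stage, where many of them are on.

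The authors deposited FPKM, a count of fragments for each kilobase of a gene, scaled to library depth. The kilobases were those of the whole gene with its introns, so that long genes have low values and FPKM was compared only within a gene. For comparisons between genes the recovered reads were divided by exon length instead, and this level is called exon FPKM. The 4 libraries held between 15327359 and 22627491 reads. For Cd37, the deleted gene, FPKM was 56.6 and 46.8 in the controls against 23.2 and 22.9 without CD37, and 44.6% of the control mean was left. Only some exons of Cd37 are floxed, so reads of its other exons can still be counted after deletion. This share is therefore no measure of intact Cd37, and reads by exon were not examined. Differences between the groups are given as log2 fold changes of CD37 -/- over CD37 fl/fl on the log2(FPKM + 1) scale, on which the change of weakly expressed genes comes out too small. They were tested with limma over the 6761 genes whose FPKM averaged at least 1, and all 8 genes passed this filter.

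Per exon length, Elane was the most abundant of the 8 genes and the rank 7 gene of the whole table, with a mean of 3621 exon FPKM over the 4 libraries. Prtn3 (mean 1837 exon FPKM) and Ctsg (1628 exon FPKM) followed, and their library values overlapped. Ms4a3 (829 exon FPKM), Lyz2 (818 exon FPKM) and Srgn (567 exon FPKM) formed the next level and overlapped as well. Mpo lay apart from its protease partners, with a mean of 148 exon FPKM and rank 450, and every library of Mpo was below every library of Srgn. Cst7 was the lowest, with a mean of 32.5 exon FPKM and rank 2005. Elane was above Prtn3 in every library, but the highest Ctsg library (3540 exon FPKM) reached the lowest Elane library (3502 exon FPKM).

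**Figure D1:**
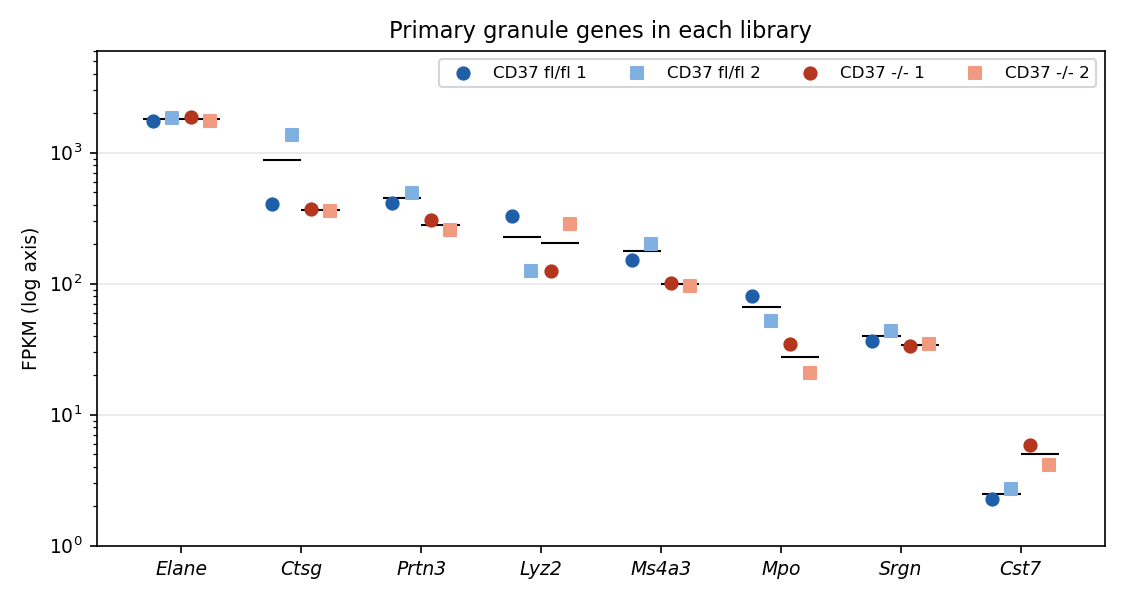
FPKM of the 8 primary granule genes in each library (y axis, log scale), with the genes on the x axis ordered by their mean, circles for replicate 1, squares for replicate 2 and a black line for each group mean. Elane differed by 1.08-fold between its highest and lowest library, the CD37 -/- libraries of Mpo, Ctsg, Prtn3, Ms4a3 and Srgn lie below both CD37 fl/fl libraries, those of Cst7 lie above, and those of Lyz2 overlap.

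Together the 8 genes made up 1.36% and 1.65% of all reads with CD37 (fl/fl) and 1.07% and 1.06% without CD37 (-/-). Without Elane these shares were 1.01% and 1.29% against 0.700% and 0.713%. Both CD37 -/- libraries were thus below both CD37 fl/fl libraries, and the gap was also there without Elane. In RNA from sorted bulk cells, fewer cells that express a gene and less RNA of it per cell cannot be told apart.

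In limma, none of the 8 genes passed a Benjamini-Hochberg adjusted p of 0.05, nor did any of the 6761 tested genes (0, or 0%). The smallest adjusted p in the table was 0.0502. At an unadjusted p under 0.05 (limma), 1626 of the 6761 genes (24%) differed, with 538 (7.96%) lower and 1088 (16.1%) higher in CD37 -/- LSCs. Without CD37 -/- replicate 2, 809 genes did. Of the 8 primary granule genes, Mpo and Ms4a3 were lower at that threshold and Cst7 was higher. Limma-voom on the recovered reads also gave 0 genes at an adjusted p under 0.05, and 3309 at an unadjusted p under 0.05. It was run on another set of genes, those averaging at least 10 reads. The share of that set was not computed, so 3309 cannot be set against 1626 of 6761. The 2 groups did not overlap in 6 of the 8 genes, against 61.9% of all tested genes. These were 5 genes with lower values in CD37 -/- LSCs (Mpo, Prtn3, Ctsg, Ms4a3 and Srgn), against 23.7% of all tested genes, and 1 gene with higher values (Cst7), against 38.2%. The median log2 fold change was -0.45 over the 8 genes and 0.11 over all tested genes.

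**Figure D2:**
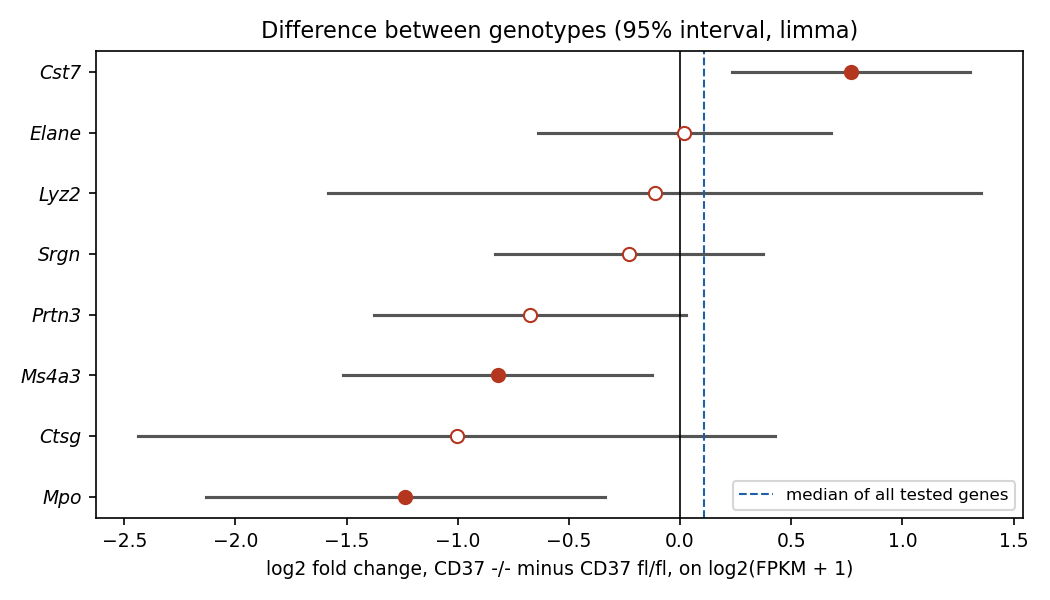
Log2 fold change of CD37 -/- over CD37 fl/fl LSCs for each primary granule gene on log2(FPKM + 1) (x axis), with 95% intervals from limma, filled points for an unadjusted p under 0.05 and a dashed line at the median of all 6761 tested genes (0.11). The intervals of Mpo, Ms4a3 and Cst7 leave out 0, and those of Ctsg and Lyz2 are the widest.

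Myeloperoxidase, the heme enzyme that defines the myeloid lineage in the clinic, is encoded by Mpo (ENSMUSG00000009350, chr11:87793581-87804413, plus strand, GRCm38). FPKM was 80.3 and 51.6 for the CD37 fl/fl replicates and 34.4 and 20.8 for the CD37 -/- replicates. Both CD37 -/- libraries were below both CD37 fl/fl libraries, and all 4 were spread out, with 5090 to 13330 reads each. A gene on the other strand overlaps Mpo in the annotation and was not analysed here. The mean was 65.9 ± 20.3 (SD, n = 2) in CD37 fl/fl and 27.6 ± 9.67 (SD, n = 2) in CD37 -/- LSCs, or 41.9% of the control. The log2 fold change was -1.24 (SE 0.36, 95% interval -2.13 to -0.34), with an unadjusted p of 0.0154 and a Benjamini-Hochberg adjusted p of 0.141 in limma. This was the lowest log2 fold change of the 8 genes, and 1.88% of all tested genes had a value as low or lower. Without CD37 fl/fl replicate 1 it was -0.92 (unadjusted p = 0.0906, limma) and without CD37 -/- replicate 2 it was -0.88 (unadjusted p = 0.0627, limma). The 4 Mpo values ran down in the order in which the library totals ran up (15327359, 17327703, 17740459 and 22627491 reads) and the sum of all FPKM ran down (260590, 257393, 217309 and 181944). With every library brought to the same sum (TPM), the Mpo log2 fold change was -0.88 (unadjusted p = 0.0293, limma), and the part of depth in it was not tested.

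The course of Mpo over the 4 libraries was compared by the root mean square (RMS) difference of centred log2 values. The pool was 2676 named genes averaging an FPKM of at least 5, without the primary granule genes and without provisional Gm or Rik names. The nearest genes were Znhit1 (0.0690), Lst1 (0.0909), S100a13 (0.0957), Pfdn5 (0.0978) and D8Ertd738e (0.0994). Znhit1, a subunit of a chromatin remodeling complex, had an FPKM of 59.7 and 40.5 in CD37 fl/fl and of 26.1 and 17.5 in CD37 -/- LSCs. Among the other 7 primary granule genes, compared separately, the nearest to Mpo was Prtn3, at an RMS difference of 0.447. The smallest of 2676 differences over 4 libraries tends to lie below the smallest of 7, so these values cannot be compared.

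The serine proteases differed among themselves. Neutrophil elastase, which cleaves matrix and microbial proteins, is encoded by Elane (ENSMUSG00000020125, chr10:79886247-79888215, plus strand, GRCm38). In the controls FPKM was 1750 and 1844, and in CD37 -/- LSCs it was 1884 and 1760, from 52812 to 78434 reads. The groups overlapped, and the highest library was 1.08-fold above the lowest. Its log2 fold change was 0.02 (SE 0.27, 95% interval -0.64 to 0.68; Benjamini-Hochberg adjusted p = 0.971 in limma), so that changes of that size in either direction were within its error. Its sign depended on the scaling, with 0.68 after quantile normalization (unadjusted p = 0.0215, limma) and -0.04 after division by the upper quartile.

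Proteinase 3, a close relative of elastase, is encoded by Prtn3 (ENSMUSG00000057729, chr10:79874476-79883174, plus strand, GRCm38). The CD37 fl/fl replicates had an FPKM of 411 and 489, and the CD37 -/- replicates of 307 and 256, from 47368 to 73767 reads. The groups did not overlap, and the CD37 -/- mean (282 ± 35.9, SD, n = 2) was 62.6% of the CD37 fl/fl mean (450 ± 55.7, SD, n = 2). The log2 fold change was -0.67 (SE 0.28, 95% interval -1.38 to 0.03), with an unadjusted p of 0.0566 and a Benjamini-Hochberg adjusted p of 0.215 in limma. Quantile normalization gave -0.18 and TPM rescaling gave -0.30. The first 159 bases of Prtn3 overlap Plppr3 on the other strand, which held 4649 to 6992 reads per library, and the strand setting of the counting is not given in the sources used here.

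Cathepsin G, a protease with a chymotrypsin-like and trypsin-like preference, is encoded by Ctsg (ENSMUSG00000040314, chr14:56099881-56102574, minus strand, GRCm38). FPKM was 403 and 1357 for the CD37 fl/fl replicates and 375 and 362 for the CD37 -/- replicates. CD37 fl/fl replicate 2 stood apart from the other 3 libraries, which lay close together, and the control libraries differed by 3.37-fold. The mean was 880 ± 675 (SD, n = 2) against 368 ± 9.36 (SD, n = 2), and the log2 fold change was -1.01 (SE 0.58, 95% interval -2.44 to 0.43; Benjamini-Hochberg adjusted p = 0.321 in limma). Leaving out CD37 fl/fl replicate 2 gave a log2 fold change of -0.13 (unadjusted p = 0.741, limma) and without CD37 fl/fl replicate 1 it was -1.88 (unadjusted p = 0.00585, limma). The lower group mean of Ctsg thus rested on 1 library.

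CD37 fl/fl replicate 2 also differed in the markers of maturing neutrophils. All 12 of 12 genes of secondary granules and late neutrophils (Ltf, Camp, Lcn2, Ngp, Mmp8, Mmp9, S100a8, S100a9, Ifitm6, Retnlg, Chil3 and Cybb) were lowest in that library. This was not particular to late neutrophils. Lowest there were also 3 of 3 eosinophil, 6 of 7 erythroid, 5 of 7 B cell and 6 of 10 monocyte and macrophage markers. So were 3 of 6 mast cell and basophil markers and 1 of 4 T and NK cell markers. Among the related lists described below, 5 of 8 other azurophil granule proteins were lowest there. The same held for 4 of 9 progenitor genes and 3 of 8 transcription factors. Of the 8 primary granule genes and of the 6 maturation and inhibition genes, 0 were. The share of all genes lowest in that library was not computed. The exon FPKM of the 12 late neutrophil genes summed to 55221 and 11305 for CD37 fl/fl replicates 1 and 2. It summed to 47444 and 30887 for the CD37 -/- replicates, and none of the 12 genes was at 0. The antimicrobial peptide gene Camp had an FPKM of 731 and 93.7 in CD37 fl/fl and of 1437 and 718 in CD37 -/- LSCs. Thus the library with the most Ctsg had the fewest late neutrophil transcripts, and the part of these cells in the Ctsg result was not tested.

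**Figure D3:**
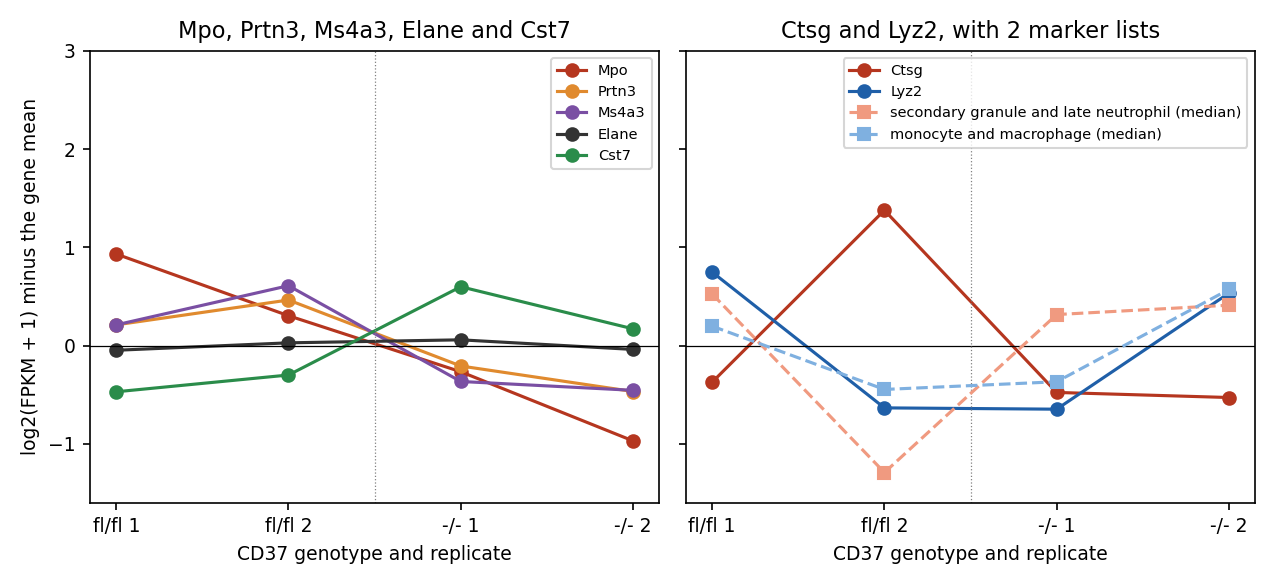
Course of the primary granule genes over the 4 libraries (x axis), as log2(FPKM + 1) minus the mean of the gene (y axis), for Mpo, Prtn3, Ms4a3, Elane and Cst7 (left) and for Ctsg and Lyz2 with the medians of the late neutrophil and of the monocyte and macrophage markers (right, dashed). Prtn3 and Ms4a3 run together, Ctsg is high in CD37 fl/fl replicate 2 where the late neutrophil median is lowest, and Lyz2 and the monocyte median are low in CD37 fl/fl replicate 2 and CD37 -/- replicate 1.

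Expressed as a percentage of Elane per exon length within the same library, Prtn3 was 58.9% and 66.6% in CD37 fl/fl LSCs but 40.9% and 36.5% in CD37 -/- LSCs. Mpo was 7.25% and 4.42% of Elane in the control and 2.89% and 1.86% in CD37 -/- LSCs. Ctsg was 30.0% and 95.9% of Elane in the control and 25.9% and 26.8% in CD37 -/- LSCs. These ratios do not depend on the library totals. For Prtn3, Mpo and Ctsg, and also for Ms4a3 and Srgn, both CD37 -/- ratios were below both CD37 fl/fl ratios. For Ctsg the nearest ratios were 30.0% and 26.8%. For Cst7 both CD37 -/- ratios were above, and for Lyz2 the groups overlapped. Elane differed by only 1.08-fold between libraries, so the ratios largely repeat the FPKM differences of each gene. Ratios to Elane were not computed for genes outside the primary granule set.

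Elane and Prtn3 are neighbours, 3073 bases apart and in the same orientation, in a cluster that also holds the complement protease gene Cfd. Cfd had 16 to 29 reads per library and was not tested, so at this depth the cluster was represented by Elane and Prtn3. The other tested protein-coding genes within 50 kb were on either side. Ptbp1, which encodes a splicing regulator, had an FPKM of 2.25 and 3.56 in CD37 fl/fl and of 12.5 and 23.8 in CD37 -/- LSCs (log2 fold change 2.25, Benjamini-Hochberg adjusted p = 0.0649 in limma). Med16, a subunit of the Mediator complex, had an FPKM of 3.50 and 3.54 against 5.16 and 5.94, and Plppr3 of 27.6 and 27.1 against 18.5 and 21.8. Arid3a, which encodes a DNA-binding protein, had 2.90 and 2.24 against 4.03 and 5.18, while R3hdm4 had 16.7 and 9.16 against 13.2 and 12.6. Thus lower, higher and overlapping genes lay side by side around the proteases. Beside Ctsg, at a distance of 14608 bases, lay the basophil protease gene Mcpt8. It had an FPKM of 4.87 and 13.8 in CD37 fl/fl and of 12.0 and 5.74 in CD37 -/- LSCs. Like Ctsg, Mcpt8 was highest in CD37 fl/fl replicate 2, but its groups overlapped.

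The 250 bases ahead of each start site in RefSeq (GRCm38.p6) were searched on both strands for short letter strings of known regulators. All 8 genes had such a window, and other forms of the sites were not searched. The string GAGGAA, a form of the PU.1 site, was found in the peroxidase gene Mpo and in the serine protease genes Elane, Prtn3 and Ctsg. It was not found in Ms4a3, Srgn, Cst7 or Lyz2, where other forms of the site may occur. It is held by 23.3% of all 32851 windows. The windows of these 4 genes are shown because they share these letters while their values over the libraries differ, with GAGGAA in capitals and only the bases ahead of the exon that holds the start in GENCODE M21, each written along the strand of its gene.
Mpo, chr11:87793534-87793580, plus strand: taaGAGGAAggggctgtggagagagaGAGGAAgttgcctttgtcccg
Elane, chr10:79886062-79886246, plus strand: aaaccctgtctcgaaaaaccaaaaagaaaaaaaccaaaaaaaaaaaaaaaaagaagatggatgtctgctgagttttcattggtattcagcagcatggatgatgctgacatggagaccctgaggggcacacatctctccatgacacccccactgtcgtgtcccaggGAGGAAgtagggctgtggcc
Prtn3, chr10:79879417-79879613, plus strand: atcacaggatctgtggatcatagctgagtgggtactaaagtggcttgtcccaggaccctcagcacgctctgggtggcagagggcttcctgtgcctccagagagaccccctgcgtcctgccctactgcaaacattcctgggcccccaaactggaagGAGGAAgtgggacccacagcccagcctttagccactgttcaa
Ctsg, chr14:56102575-56102824, minus strand: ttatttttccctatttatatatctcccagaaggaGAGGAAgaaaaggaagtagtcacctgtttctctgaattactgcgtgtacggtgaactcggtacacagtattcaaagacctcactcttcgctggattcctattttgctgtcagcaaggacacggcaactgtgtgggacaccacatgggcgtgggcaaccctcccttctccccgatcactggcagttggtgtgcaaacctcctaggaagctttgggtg
The letters begin 247 and 224 bases ahead of the RefSeq start in Mpo, 85 in Elane, 95 in Prtn3 and 216 in Ctsg. The Prtn3 window lies inside the GENCODE gene, which has longer transcripts that begin further upstream. In Elane and Prtn3 the letters lie at nearly the same distance from the start. The C/EBP letters TTGCNNAA (9.56% of all windows) were in none of the 8 genes. The RUNX letters TGNGGT (40.1% of all windows) were in Ctsg, Srgn, Cst7 and Lyz2, and the MYB letters AACNG (74.2% of all windows) in all of the 8 genes but Ms4a3. The TATA box letters TATAAA (12.4% of all windows) were in Ctsg and in 1 of the 2 windows of Srgn. A match is a description of the sequence, and binding was not measured here.

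Serglycin, the proteoglycan on which the proteases are stored, is encoded by Srgn (ENSMUSG00000020077, chr10:62493833-62527451, minus strand, GRCm38). In the controls FPKM was 36.4 and 43.7, and in CD37 -/- LSCs it was 33.3 and 34.6, from 18769 to 26313 reads. The groups did not overlap, but the highest and the lowest library differed by only 1.31-fold. Its log2 fold change was -0.23 (SE 0.24, 95% interval -0.83 to 0.38; Benjamini-Hochberg adjusted p = 0.578 in limma) and turned to 0.15 after TPM rescaling. The course of Srgn was nearest to that of Elane, at an RMS difference of 0.150.

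Ms4a3 (ENSMUSG00000024681, chr19:11629496-11640851, minus strand, GRCm38) encodes a membrane-spanning protein of granulocyte-monocyte progenitors and promyelocytes. The CD37 fl/fl replicates had an FPKM of 152 and 201, and the CD37 -/- replicates of 102 and 95.6, from 20502 to 39538 reads. Both CD37 -/- libraries were below both CD37 fl/fl libraries, with a mean of 98.7 ± 4.39 (SD, n = 2) against 177 ± 34.5 (SD, n = 2), or 55.9% of the control. The log2 fold change was -0.82 (SE 0.28, 95% interval -1.52 to -0.13), with an unadjusted p of 0.0280 and a Benjamini-Hochberg adjusted p of 0.164 in limma. It was -0.62 without CD37 fl/fl replicate 2 (unadjusted p = 0.142, limma), -0.78 without CD37 -/- replicate 2 (0.0617), -0.53 after quantile normalization (0.0867) and -0.44 after TPM rescaling (0.139). Of all pairs of primary granule genes, Ms4a3 and Prtn3 had the most similar course over the 4 libraries (RMS difference 0.107), although they lie on different chromosomes. The least similar pair was Ctsg and Lyz2 (RMS difference 1.27).

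Cystatin F, an inhibitor of cysteine cathepsins in immune cells, including the enzyme that activates the granule proteases, is encoded by Cst7 (ENSMUSG00000068129, chr2:150570415-150578944, plus strand, GRCm38). FPKM was 2.29 and 2.70 for the CD37 fl/fl replicates and 5.89 and 4.12 for the CD37 -/- replicates, from 299 to 892 reads. Both CD37 -/- libraries were above both CD37 fl/fl libraries, the opposite order to that of Mpo, Prtn3, Ctsg, Ms4a3 and Srgn. The mean was 5.01 ± 1.25 (SD, n = 2) against 2.49 ± 0.292 (SD, n = 2), or 201% of the control. Its log2 fold change was 0.77 (SE 0.22, 95% interval 0.23 to 1.31), with an unadjusted p of 0.0130 and a Benjamini-Hochberg adjusted p of 0.136 in limma. It was 0.68 without CD37 fl/fl replicate 1 (unadjusted p = 0.0591, limma) and 0.56 without CD37 -/- replicate 1 (unadjusted p = 0.0872, limma).

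Lysozyme, which cuts bacterial cell walls and is made by granulocytes as well as by monocytes and macrophages, is encoded by Lyz2 (ENSMUSG00000069516, chr10:117277331-117282321, minus strand, GRCm38). In the controls FPKM was 329 and 126, and in CD37 -/- LSCs it was 125 and 284, from 10876 to 32035 reads. Each group held a high and a low library, and the groups overlapped. The log2 fold change was -0.11 (SE 0.59, 95% interval -1.58 to 1.36; Benjamini-Hochberg adjusted p = 0.921 in limma), with -0.80 and 0.58 as the extremes when each library was left out in turn. Quantile normalization turned it to 0.29 and TPM rescaling to 0.27. The near-identical gene Lyz1, at a distance of 5476 bases, held 8 to 81 reads per library, or 0.0703% to 0.765% of Lyz2 per exon length, and reads of the pair can be assigned to either gene.

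Lyz2 had its low libraries in common with the monocyte and macrophage genes. Of the 10 monocyte and macrophage markers, 6 were lowest in CD37 fl/fl replicate 2 and 4 in CD37 -/- replicate 1, which are the low Lyz2 libraries, and none was at 0. Their exon FPKM summed to 945 and 505 in CD37 fl/fl LSCs and to 564 and 855 in CD37 -/- LSCs. Csf1r, the receptor for macrophage colony-stimulating factor, had an FPKM of 3.79 and 1.16 in CD37 fl/fl and of 1.16 and 4.38 in CD37 -/- LSCs. The part of monocytic cells in the Lyz2 level was not tested. Among the genes with a course nearest to that of Lyz2 were Psap (RMS difference 0.121), Zfp36l1 (0.151), Ighm (0.188) and Ccl4 (0.191). Psap, which encodes the lysosomal protein prosaposin, had an FPKM of 62.7 and 27.0 in CD37 fl/fl and of 28.6 and 66.8 in CD37 -/- LSCs.

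Since the scalings moved the median of all tested genes from 0.11 to -0.02 (quantile normalization) and to 0.49 (TPM rescaling), the log2 fold changes were also taken relative to that median. Mpo was then at -1.34, and at -1.10 and -1.37 under those scalings. Ms4a3 was at -0.93, -0.50 and -0.93, Prtn3 at -0.78, -0.16 and -0.78, and Ctsg at -1.11, -0.51 and -1.11. All 4 stayed below the median of all genes under these scalings. Cst7 was above it, at 0.66, 0.59 and 0.80. Srgn was at -0.34, -0.09 and -0.34, whereas Elane (-0.09, 0.70 and -0.09) and Lyz2 (-0.22, 0.31 and -0.22) changed sign.

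Other proteins of azurophil granules and lysosomes were set beside the peroxidase and the proteases. Of 8 listed genes (Prss57, Bpi, Cd63, Cd68, Gusb, Gaa, Man2b1 and Ctsd), 7 were tested. At an unadjusted p under 0.05 (limma), 2 of the 7 were higher in CD37 -/- LSCs (16.1% of all tested genes) and 0 were lower, with 0 at an adjusted p under 0.05 and a median log2 fold change of 0.25. Ctsd, the aspartic protease cathepsin D, had an FPKM of 5.81 and 4.12 in CD37 fl/fl and of 9.96 and 18.9 in CD37 -/- LSCs (log2 fold change 1.32, Benjamini-Hochberg adjusted p = 0.122 in limma). Man2b1, the lysosomal alpha-mannosidase, had 22.0 and 17.2 against 31.5 and 46.0 (log2 fold change 0.93, Benjamini-Hochberg adjusted p = 0.150 in limma). Both are general lysosomal enzymes. With Gusb (24.0 and 26.3 against 29.5 and 30.8) and Gaa (4.35 and 5.59 against 6.40 and 6.98), lysosomal hydrolases as well, 4 of the 7 tested genes did not overlap and were higher, against 38.2% of all tested genes. Prss57, a serine protease of the same granules as elastase, had 23.9 and 9.65 against 12.0 and 13.3, and the groups overlapped. Cd68, a lysosomal membrane protein of macrophages, had 135 and 75.7 against 47.7 and 94.1, and the groups overlapped as well. The groups also overlapped for Cd63, the tetraspanin of azurophil granule membranes (34.1 and 31.0 against 45.0 and 31.8).

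Among 6 genes for the maturation and inhibition of the granule proteases, 5 were tested, and 1 was lower at an unadjusted p under 0.05 (limma; 7.96% of all tested genes). This was Slpi, the secreted inhibitor of elastase and cathepsin G, with an FPKM of 17.3 and 75.2 in CD37 fl/fl and of 6.50 and 8.57 in CD37 -/- LSCs (log2 fold change -2.14, SE 0.65, Benjamini-Hochberg adjusted p = 0.146 in limma). As with Ctsg, the highest value was in CD37 fl/fl replicate 2, and leaving it out gave a log2 fold change of -1.11 (unadjusted p = 0.0155, limma). Ctsc, the cathepsin that activates the serine proteases, had 3.72 and 2.61 against 2.44 and 5.32, and Serpinb1a, an intracellular inhibitor of these proteases, had 63.8 and 142 against 81.3 and 68.6. The groups overlapped for both. Calr and Canx, chaperones through which myeloperoxidase folds, also overlapped, with log2 fold changes of -0.01 and 0.06. The median of the 5 genes was -0.01, and it ranged from -0.37 (without CD37 fl/fl replicate 1) to 0.18 (without CD37 fl/fl replicate 2).

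Of 8 transcription factors known for this stage (Cebpa, Spi1, Runx1, Cbfb, Myb, Gfi1, Cebpe and Irf8), 7 were tested, with a median log2 fold change of 0.22, 1 higher (16.1% of all tested genes) and 0 lower (7.96%) at an unadjusted p under 0.05 (limma). The higher gene was Gfi1, a repressor that directs progenitors to the granulocyte fate and represses Elane, with an FPKM of 16.5 and 19.3 in CD37 fl/fl and of 43.5 and 43.4 in CD37 -/- LSCs (log2 fold change 1.24, SE 0.23, Benjamini-Hochberg adjusted p = 0.0855 in limma). Its CD37 -/- libraries lay together at more than the spread of either group above the controls. Cebpa, which encodes C/EBP alpha, had 28.1 and 33.8 against 40.7 and 40.3, and Spi1, which encodes PU.1, had 16.2 and 11.3 against 14.9 and 16.2. Cebpe, a factor of the secondary granule stage, had 267 and 136 against 268 and 158. Irf8, a factor of the monocyte fate, had 2.35 and 2.13 against 0.427 and 1.84 (log2 fold change -0.69, Benjamini-Hochberg adjusted p = 0.261 in limma). Cbfb had 0.946 and 1.62 against 1.92 and 2.78. Of the 7 tested factors, 3 (Gfi1, Cebpa and Cbfb) did not overlap and were higher, against 38.2% of all tested genes. Irf8, 1 of the 7, did not overlap and was lower, against 23.7% of all tested genes. Spi1, Myb and Cebpe overlapped.

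**Figure D4:**
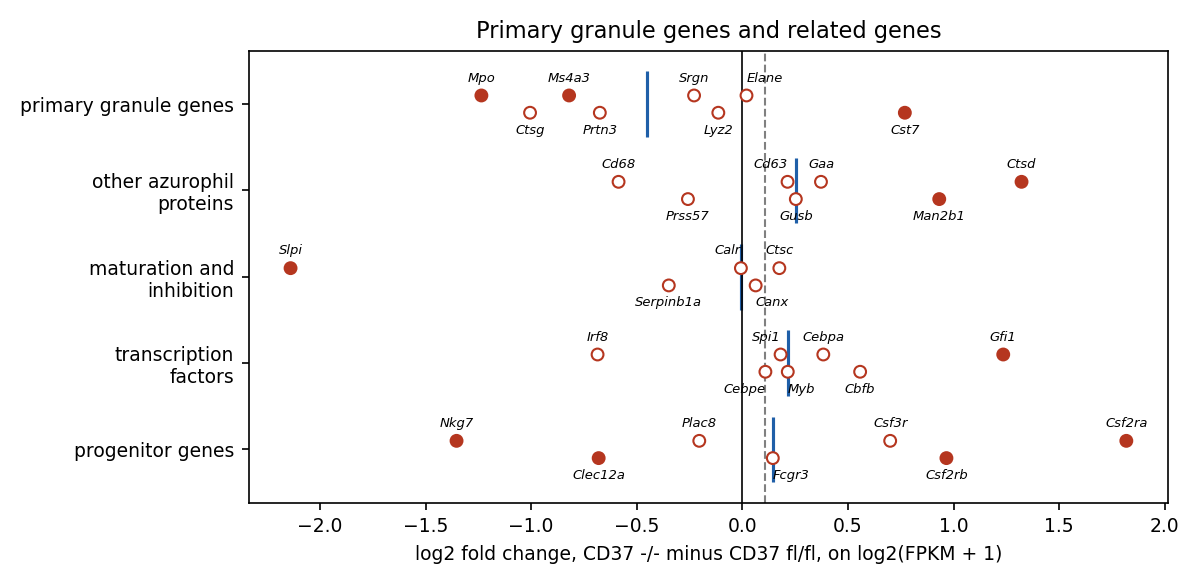
Log2 fold change of CD37 -/- over CD37 fl/fl LSCs (x axis) of the tested genes of the primary granule set and of 4 related lists (y axis), with filled points for an unadjusted p under 0.05 (limma), blue bars at list medians and a dashed line at the median of all tested genes. The primary granule genes have a median of -0.45 and the other lists of 0.25, -0.01, 0.22 and 0.14, of which -0.01 and 0.14 changed sign when single libraries were left out.

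Genes of the granulocyte-monocyte progenitor went both ways. Of 9 listed genes, 7 were tested, with 2 higher (16.1% of all tested genes) and 2 lower (7.96%) at an unadjusted p under 0.05 (limma) and a median of 0.14. Csf2ra and Csf2rb, the chains of the GM-CSF receptor, were higher. Csf2ra had an FPKM of 30.0 and 25.5 in CD37 fl/fl and of 79.3 and 127 in CD37 -/- LSCs (log2 fold change 1.82, Benjamini-Hochberg adjusted p = 0.0758 in limma), and Csf2rb had 8.56 and 4.75 against 11.2 and 16.3. Nkg7, a membrane protein of cytotoxic granules, was lower with 94.6 and 118 against 40.1 and 41.3 (log2 fold change -1.35, Benjamini-Hochberg adjusted p = 0.0865 in limma). Clec12a, a myeloid lectin receptor, was lower with 94.1 and 80.8 against 58.7 and 49.8. Of the 7 tested genes, 2 did not overlap and were higher, against 38.2% of all tested genes. Another 2 did not overlap and were lower, against 23.7%. These were the same 4 genes. Plac8, Fcgr3 and Csf3r overlapped. The median of the 7 genes was 0.53 without CD37 fl/fl replicate 1, 0.39 without CD37 -/- replicate 1, -0.03 without CD37 fl/fl replicate 2 and -0.10 without CD37 -/- replicate 2, so that its sign turned on the library left out.

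The sort on c-kit was set against the c-kit gene itself. Kit had 213 to 804 reads per library, with an FPKM of 0.170 and 0.325 in CD37 fl/fl and of 0.327 and 0.434 in CD37 -/- LSCs, and Cd34 had 5 to 16 reads. Both were under the filter and were not tested. The late neutrophil markers summed to more than the primary granule genes in 3 of the 4 libraries, which had 9612 and 12232 exon FPKM of primary granule genes in CD37 fl/fl LSCs and 8044 and 8035 in CD37 -/- LSCs. S100a8 and S100a9 made up most of the late neutrophil sum, with 17449 and 29556 of 55221 exon FPKM in CD37 fl/fl replicate 1. The sums were not compared without these 2 genes. The sorted cells thus held transcripts of secondary granules and late neutrophils beside those of the primary granules.

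The summed exon FPKM of the erythroid markers (7 of 8 in the table) was 90.0 and 8.19 in CD37 fl/fl LSCs and 917 and 237 in CD37 -/- LSCs, and 4 of 4 tested were higher at an unadjusted p under 0.05 (limma; 16.1% of all tested genes). The eosinophil markers (3 of 6 in the table) summed to 101 and 13.7 against 134 and 142, the mast cell and basophil markers (6 of 8) to 18.3 and 45.1 against 47.7 and 23.2, and the B cell markers (7 of 8) to 32.1 and 37.3 against 21.7 and 17.0. The T and NK cell markers (4 of 8) summed to at most 1.24, and none was tested. The defining genes Fcer1a, Cd3g and Il2rb were at 0 in both CD37 fl/fl libraries, and Gzmb and Pax5 were at 0 in CD37 fl/fl replicate 2. The erythroid sum was higher in CD37 -/- LSCs and the B cell sum was lower, and the part of these cells in the primary granule results was not tested.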

How the data were processed

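Poly(A) RNA of sorted LSCs was sequenced as dUTP libraries from 2 CD37 fl/fl and 2 CD37 -/- samples, grouped by the genotype label. The authors deposited FPKM per gene and library, without a log or pooling. The submitters' processing notes name fastp 0.20.1, STAR 2.7.7a, featureCounts 2.0.0, edgeR and the build mm39, without their order or role. Of 17104 gene identifiers, 17045 (99.7%) were named with GENCODE M21 on GRCm38, whose coordinates are printed. With its gene spans between 98.9674% and 99.0085% of the values in a library were whole reads within 0.05 reads (10.0% by chance). With exon lengths this was at most 12.4%. The counting strand is not given in the sources used here.

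Genes averaging an FPKM of at least 1 were fitted on log2(FPKM + 1) in limma 3.58.1 (lmFit, and eBayes with trend), under R 4.3.3 with statmod 1.5.0. The threshold was a Benjamini-Hochberg adjusted p of 0.05. Replicates differed by far more than sampling noise (chi-square over its degrees of freedom, 102.5 for the controls and 66.92 for CD37 -/- LSCs). Python 3.11.15, with numpy 2.4.6, pandas 2.3.3 and matplotlib 3.10.9, served for tables and plots, and the fit was tested on simulated data. The primary granule genes and the lists were chosen with earlier results of these data known. The genes named are these 8, Lyz1, Cd37, the genes of the lists, protein-coding genes within 50 kb of Prtn3, Elane, Ctsg and Lyz2, and the 5 genes closest in course to Mpo and to Lyz2, of which 1 is not reported here. Listed genes without a row in the table were not analysed here. Alternatives were another pseudocount (0.1), other filters, scalings and variance estimates, a replicate block, leaving out each library, exon length, and limma-voom on the recovered reads.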

Additional observations from a re-analysis of the deposited data

How the results depend on the processing

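With 2 libraries a group, each left-out fit assumes that the lone library varies like the other group. Genes past an adjusted p of 0.05 (0) came to 45 with a mean FPKM of at least 5, 88 with robust eBayes, 16 with exon length and 73 with the replicate block, and to 0 without any of the libraries, and none of the primary granule genes was among them. The labels do not say that the replicate numbers pair the libraries. The correlation of the replicate differences of the groups was -0.0418 over 6761 genes. With a single difference per group, it cannot decide whether the libraries were paired. The cause of the differing gene counts was not tested. The number of primary granule genes at an unadjusted p under 0.05 (3) ranged from 1 (without CD37 -/- replicate 2) to 3 without each library, and was 4 at most. Their median (-0.45) was -0.67 with a mean FPKM of at least 5, where Cst7 was not tested, -0.15 after quantile normalization, -0.075 after TPM rescaling, and between -0.62 and -0.34 without each library. Mpo, Prtn3, Ctsg, Ms4a3 and Cst7 kept their direction in every alternative in which they were tested. Elane turned to -0.036 with upper quartile scaling and ranged from -0.029 to 0.068 without each library. Srgn turned to 0.15 after TPM rescaling. Lyz2 turned to 0.29 after quantile normalization and to 0.27 after TPM rescaling, and ranged from -0.80 to 0.58 without each library. The lists of other azurophil proteins and of transcription factors kept a positive median throughout. Without each library in turn, the median of the progenitor genes ranged from -0.096 to 0.53 and that of the maturation and inhibition genes from -0.37 to 0.18, so that both changed sign. Depth limits Cst7 most, with 299 to 892 reads per library.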
